A study of Mus musculus with 6 samples.

Results

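Transcripts of 10 p53 target and apoptosis regulator genes were examined in primary stellate cells of the mouse liver, which lie beside the sinusoids and store vitamin A. The question was whether cells exposed to PRI-724 showed a death programme, in young and in old cells. The genes were Mdm2, Ccng1, Bax, Bbc3, Pmaip1, Fas, Bcl2, Bcl2l1, Bcl2l11 and Mcl1, and they were listed by name. Each was read from the probe set that names it alone and, where there were several, from the one with the highest mean over the arrays. Such a probe set was found for 9 of the 10 genes, out of 22180 genes with one. No probe set was matched to Bax, so its expression is not analysed here and only its promoter window is used. All 9 were among the 15526 genes with enough signal to be tested.

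There were 6 Affymetrix arrays, 1 for each combination of 2 ages and 3 states, and every sample pooled cells of 5 mice. Young mice were 8 to 11 weeks old and old mice 6 to 9 months. Quiescent cells came from normal liver, 12 h after plating. Activated cells had stayed on plastic for over 20 days, with fresh medium every 5 days, and received vehicle or 10 µM of C-82, for which DMSO is named as the solvent. PRI-724 is a prodrug that releases C-82, a small molecule that keeps CBP from acting as a coactivator for beta-catenin, and the samples are labelled PRI-724. No strain, sex, genotype or exposure time is stated in the labels, and no animal-level replicates were analysed here. A difference between states is therefore the mean over a young and an old pair of arrays (n = 2 pairs). Its standard error (SE), 95% interval and adjusted p come from limma, in which the disagreement between ages serves as the error and p-values are adjusted over all tested genes. These p-values measure only the spread between the pooled samples.

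The transcription factor p53 responds to DNA damage and other stress and switches on genes that halt the cell cycle or start apoptosis. Mdm2 encodes the ubiquitin ligase that degrades p53, and Ccng1 encodes cyclin G1, which regulates the p53-Mdm2 loop. Bbc3 (PUMA), Pmaip1 (NOXA) and Bcl2l11 (BIM) encode BH3-only proteins, which trigger the mitochondrial route to death by binding the survival proteins encoded by Bcl2, Bcl2l1 (BCL-XL) and Mcl1. Bax forms pores in the outer mitochondrial membrane once survival proteins are overcome, and Fas is a death receptor at the cell surface. In liver fibrosis, the death of activated stellate cells is one of the routes by which scar-forming cells are lost.

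Several of these genes are known p53 targets, so runs of letters that match the p53 half-site in their promoter windows are given first. RefSeq promoter windows of GRCm38.p6, running from 250 bases before to 50 bases after a transcript start, were at hand for 9 of the 10 genes (all but Pmaip1). Some genes have several windows, and a gene was counted if any of its windows held a match. Shares of all windows count each window by itself, so they are not a like measure. The p53 half-site consensus, a 10-base palindrome that reads alike on both strands, was searched without mismatches. It was found in the windows of 3 of these 9 genes, Bax, Mdm2 and Ccng1, and in 8.36% of all 32851 windows. In each case it lay 176 to 201 bases before the start. The sites are printed 5′ to 3′ on the gene's strand, with the half-site in capitals and 10 bases on each side.
Bax, chr7:45467080-45467109, minus strand: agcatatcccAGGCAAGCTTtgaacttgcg
Mdm2, chr10:117710925-117710954, minus strand: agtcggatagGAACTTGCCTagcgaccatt
Ccng1, chr11:40755452-40755481, minus strand: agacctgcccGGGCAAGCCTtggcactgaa
A pair of half-sites at most 13 bases apart, with up to 2 mismatches in all and the central 4 bases intact, was found in the window of 1 of the 9 genes, Bax, and in 2.12% of all windows. Bax had 2 overlapping pairs, of which the one with a spacer of 5 bases is shown.
Bax, chr7:45467080-45467124, minus strand: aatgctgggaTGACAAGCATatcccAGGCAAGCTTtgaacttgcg
The FOXO core GTAAACA, on either strand, was in windows of Bcl2l11, Bbc3 and Mdm2 and in 3.65% of all windows. The ATF4 composite TGATGNAA was in windows of 0 of the 9 genes and in 3.97% of all windows. The searched motifs were counted separately, and a match is a run of letters, not a bound site.

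The young PRI-724 array stood apart in its range of signal. The interquartile range of tested genes was 1.71 log2 units on it and 2.11 to 2.43 on the other 5 arrays. In the young pair, the PRI-724 minus vehicle difference had a median of 0.37 for the dimmest 25% of genes, 0.00 for the next 25%, -0.45 for the third such group and -0.42 for the brightest. In the old pair all 4 medians lay between -0.03 and 0.00. All 10 stellate markers were among the tested genes, and their summed linear signal was 1750 to 1850 in quiescent, 5090 to 6670 in vehicle and 2050 to 4550 in PRI-724 cells. Markers of other liver cells were also present. With PRI-724 against vehicle, 12 of 12 sinusoidal endothelial, 11 of 14 macrophage and 2 of 10 stellate markers fell (1.93% of all genes). The summed endothelial signal was 11900 to 13700 in vehicle and 1090 to 2720 in PRI-724 cells, and the summed macrophage signal 7340 to 8520 and 1170 to 1590. In quiescent cells these sums were 9820 to 20900 for endothelial and 6290 to 11700 for macrophage markers. With activation 3 of 9 hepatocyte markers fell, where 1.26% of all genes did. Their summed signal was 1290 to 11600 in quiescent and 421 to 2080 in vehicle cells. Rises were called for 7 of 10 stellate, 2 of 6 mesothelial, 2 of 12 sinusoidal endothelial and 1 of 14 macrophage markers. Among all genes 4.61% rose. In such bulk samples, fewer cells of a type and less RNA per cell cannot be told apart, and the part of these changes in the values below was not tested.

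None of the 9 genes passed the threshold of 0.05 between PRI-724 and vehicle (0 of 9 called by limma). Of all tested genes, 2.20% were called in this comparison, 0.271% higher and 1.93% lower. At an unadjusted p under 0.05 there was 1 of the 9, Bcl2, beside 15.5% of all genes. By direction alone, 7 of the 9 were lower in both pairs, where 35.0% of all genes were, and 1, Bbc3, was higher in both, where 25.8% were. Bcl2l11 was lower in the young pair and level in the old pair. The median difference of the 9 genes was -0.56 in young and -0.26 in old cells, against -0.14 and -0.01 for all genes. After cyclic loess it was -0.26 in young and -0.28 in old cells, and after quantile normalization -0.24 and -0.20. At least 2-fold lower in the young pair was 1 of the 9 (12.3% of all genes) and in the old pair 0 (2.84%), and none was 2-fold higher in either (3.95% and 0.721%).

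The intervals describe the mean change of the bulk signal, with the disagreement between ages as the error. They do not give the change within stellate cells alone. The highest upper bound among the 9 genes was 0.78 log2 units, for Bbc3, so a 2-fold mean rise (1 log2 unit) lay outside the 95% interval of each gene taken singly, as read from its brightest probe set. The interval of a dimmer second probe set of Bcl2 reached 1.14. On the lower side, the intervals of Fas, Bcl2, Bcl2l1, Pmaip1 and Bcl2l11 reached a 2-fold decrease, with the lowest bound at -1.61 for Fas. After cyclic loess or quantile normalization of the tested genes, 6 in place of 7 were lower in both pairs. Of all 15526 genes, 5083 were lower in both after loess and 4334 after quantile normalization. Of the 9, the gene that left was Mdm2. It gave 0.10 and -0.18 in the young and old pairs after loess and 0.23 and -0.10 after quantile normalization.

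**Figure D1:**
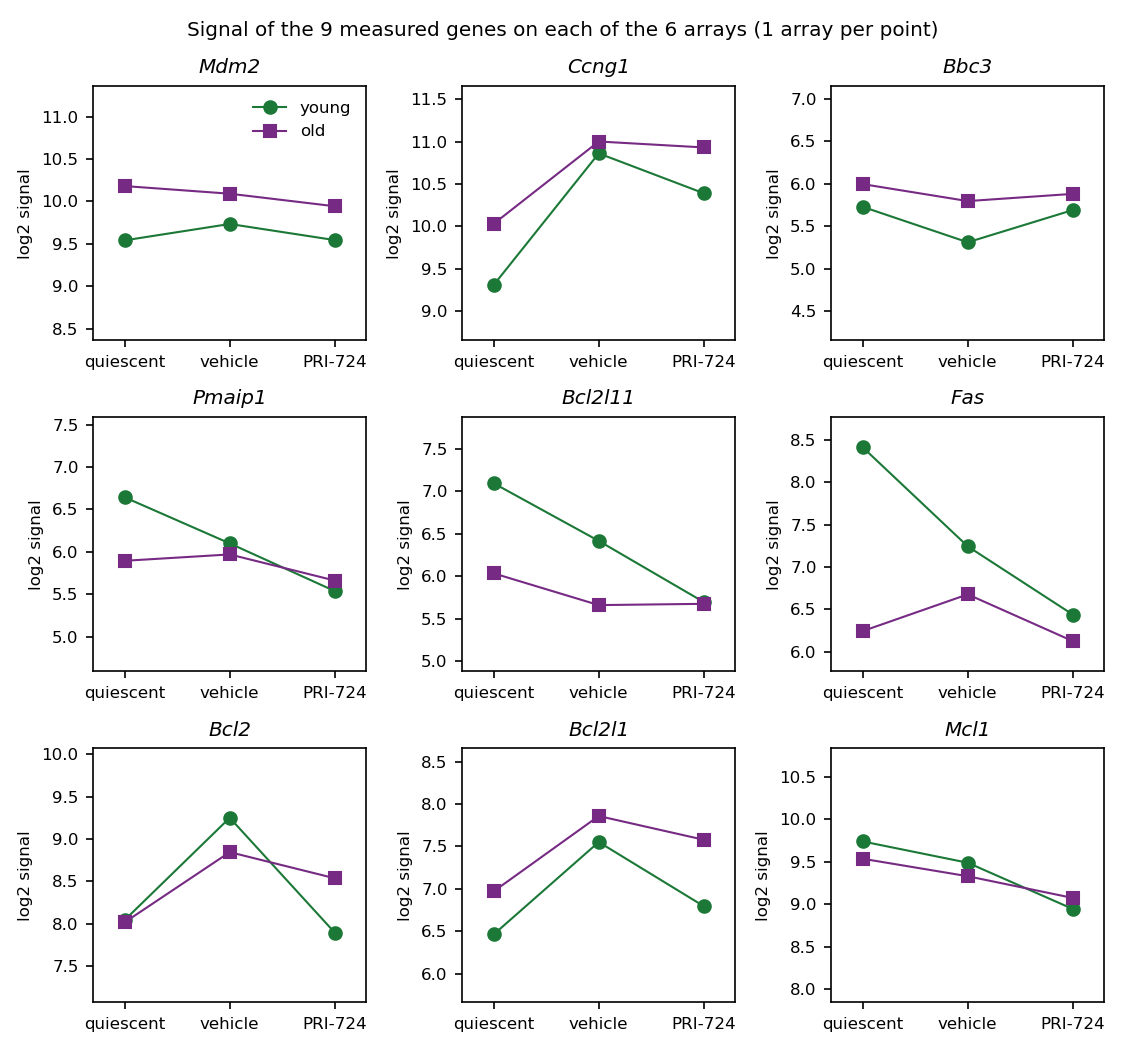
Log2 signal (y axis, a window of 3 log2 units in each panel) of the 9 measured genes in quiescent, vehicle and PRI-724 cells (x axis), with 1 array per point, circles for young and squares for old cells. Ccng1, Bcl2 and Bcl2l1 are higher in vehicle than in quiescent cells at both ages, and the old minus young difference of Fas is -2.17 in quiescent cells.

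Mdm2 and Ccng1, the regulators of p53 itself, carried the half-sites shown above, and of the pair only Ccng1 was called with activation. The log2 signal of Mdm2 was 9.54, 9.73 and 9.54 in young quiescent, vehicle and PRI-724 cells. In old cells it was 10.18, 10.09 and 9.94 in the same order. Old arrays were thus above young arrays in every state, and the states overlapped. The PRI-724 minus vehicle difference was -0.17 ± 0.22 log2 units (SE, n = 2 pairs, adjusted p = 0.75), with -0.19 in young and -0.14 in old cells. The interval ran from -0.67 to 0.33, and genes as bright as Mdm2 had a median of -0.42 in the young pair. With activation Mdm2 stood at 0.05 ± 0.22 (adjusted p = 0.918), a value that turned negative under both other normalizations (-0.12 and -0.08).

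Ccng1 was the only one of the 9 genes called in any comparison in the fit of all 6 arrays. Its signals were 9.31, 10.86 and 10.39 in young and 10.03, 11.00 and 10.93 in old quiescent, vehicle and PRI-724 cells. All activated arrays, with or without PRI-724, were above both quiescent arrays. Ccng1 rose by 1.26 ± 0.22 with activation (2.4-fold, adjusted p = 0.0131), where 4.61% of all genes were called higher and 1.26% lower. The young pair gave 1.55 and the old pair 0.97. Hepatocyte, mesothelial, stellate and some endothelial and macrophage markers moved in the same comparison, as given above. Their part in the Ccng1 value was not tested. The call was lost without the young vehicle array (1.02) or without either PRI-724 array. The fits without a PRI-724 array rest on the same vehicle and quiescent arrays, so they are not separate checks.

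With PRI-724, Ccng1 lay between its vehicle and quiescent levels at both ages. It stood at -0.27 ± 0.22 against vehicle (adjusted p = 0.586), with -0.47 in young and -0.07 in old cells and an interval from -0.76 to 0.22. Against quiescent cells Ccng1 was higher by 0.99 ± 0.22 (adjusted p = 0.0373), where 1.28% of all genes were called higher. That call was lost after cyclic loess (0.92, adjusted p = 0.0515) and in 3 of 6 leave-one-out fits (adjusted p = 0.165 without the young quiescent, 0.208 without the young PRI-724 and 0.201 without the old PRI-724 array). Comparisons with vehicle and with quiescent cells share the PRI-724 arrays.

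The 3 BH3-only genes were all in the second dimmest of the 4 groups by brightness, and Bbc3 differed in direction from Pmaip1 with PRI-724. Bbc3 signals were 5.73, 5.31 and 5.69 in young and 6.00, 5.80 and 5.88 in old quiescent, vehicle and PRI-724 cells. Vehicle gave the lowest value at each age, but the states overlapped. With PRI-724, Bbc3 stood at 0.23 ± 0.25 (adjusted p = 0.677, interval -0.32 to 0.78), with 0.38 in young and 0.09 in old cells. With activation it stood at -0.31 ± 0.25 (adjusted p = 0.505).

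Pmaip1 signals were 6.64, 6.10 and 5.54 in young and 5.89, 5.97 and 5.66 in old quiescent, vehicle and PRI-724 cells. Both PRI-724 arrays were below the 4 others. Against vehicle, Pmaip1 stood at -0.43 ± 0.28 (adjusted p = 0.496, interval -1.07 to 0.20), with -0.56 in young and -0.31 in old cells. Genes of the same brightness had medians of 0.00 and -0.03 in these pairs. Against quiescent cells the values were -1.11 in young and -0.23 in old cells (mean -0.67 ± 0.28, adjusted p = 0.277).

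Bcl2l11 signals were 7.10, 6.42 and 5.70 in young and 6.03, 5.66 and 5.68 in old quiescent, vehicle and PRI-724 cells. The young values stepped down from state to state, while the old vehicle and PRI-724 arrays differed by 0.01. The mean PRI-724 minus vehicle difference was -0.35 ± 0.30 (adjusted p = 0.603, interval -1.03 to 0.32), and it was 0.09 without the young PRI-724 array. With activation Bcl2l11 stood at -0.53 ± 0.30 (adjusted p = 0.343). Against quiescent cells both PRI-724 arrays were lower, at -1.40 in young and -0.36 in old cells (adjusted p = 0.163).

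Fas, the death receptor of the group, had the largest difference of the 9 genes between young and old quiescent cells. Its signals were 8.41, 7.24 and 6.44 in young and 6.24, 6.68 and 6.13 in old quiescent, vehicle and PRI-724 cells. Both PRI-724 arrays were below both vehicle arrays, while the quiescent arrays held the highest value, in young cells, and the second lowest, in old cells. With PRI-724, Fas stood at -0.68 ± 0.42 (adjusted p = 0.472, interval -1.61 to 0.25), with -0.80 in young and -0.55 in old cells. Genes as bright as Fas had a median of -0.45 in the young pair. After cyclic loess the Fas pairs stood at -0.36 in young and -0.54 in old cells, so the larger young fall was not kept. With activation the pairs went opposite ways, -1.17 in young and 0.43 in old cells (mean -0.37 ± 0.42, adjusted p = 0.65). Against quiescent cells the young pair gave -1.97 and the old pair -0.12. The mean of -1.05 ± 0.42 was not called (adjusted p = 0.24), but was -1.91 with an adjusted p of 0.00409 when the old quiescent array was left out.

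The survival genes Bcl2 and Bcl2l1 were about 2-fold higher in vehicle than in quiescent cells, short of the threshold, and Mcl1 was not. Bcl2 signals were 8.05, 9.25 and 7.90 in young and 8.02, 8.85 and 8.54 in old quiescent, vehicle and PRI-724 cells. Both vehicle arrays were above the 4 others. With activation Bcl2 stood at 1.02 ± 0.31 (adjusted p = 0.088), with 1.21 in young and 0.83 in old cells. With PRI-724 it stood at -0.83 ± 0.31 (adjusted p = 0.238, interval -1.53 to -0.14), with -1.35 in young and -0.31 in old cells. After cyclic loess the pairs stood at -0.92 in young and -0.33 in old cells. A second, dimmer probe set of Bcl2, with signals of 4.02 to 4.93 and below the filter on signal in its mean, pointed the other way, at -0.47 ± 0.30 with activation and 0.47 ± 0.30 with PRI-724.

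Bcl2l1 signals were 6.46, 7.55 and 6.80 in young and 6.97, 7.86 and 7.58 in old quiescent, vehicle and PRI-724 cells. Both vehicle arrays were above both quiescent arrays, and the PRI-724 arrays overlapped with each group. With activation Bcl2l1 stood at 0.99 ± 0.28 (adjusted p = 0.069), with 1.09 in young and 0.89 in old cells. With PRI-724 it stood at -0.52 ± 0.28 (adjusted p = 0.416, interval -1.14 to 0.10), with -0.76 in young and -0.28 in old cells. After cyclic loess the pairs lay closer, at -0.26 and -0.28.

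Mcl1, a short-lived survival protein gene, had signals of 9.74, 9.49 and 8.95 in young and 9.54, 9.33 and 9.08 in old quiescent, vehicle and PRI-724 cells. The states were ordered alike at both ages and did not overlap. With PRI-724, Mcl1 stood at -0.40 ± 0.24 (adjusted p = 0.468, interval -0.94 to 0.14), with -0.55 in young and -0.26 in old cells. Its second probe set gave -0.39 ± 0.25. Genes as bright as Mcl1 had a median of -0.42 in the young pair. After cyclic loess the Mcl1 pairs stood at -0.20 in young and -0.29 in old cells, so the larger young fall was not kept. With activation Mcl1 stood at -0.23 ± 0.24 (adjusted p = 0.628), and against quiescent cells at -0.63 ± 0.24 (adjusted p = 0.226).

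Across the group, both PRI-724 arrays lay below both vehicle arrays for 4 of the 9 genes (Pmaip1, Fas, Bcl2 and Mcl1), where 26.3% of all genes did. Both vehicle arrays lay above both quiescent arrays for 3 (Ccng1, Bcl2 and Bcl2l1), where 33.0% of all genes did, and below them for 1 (Mcl1), where 24.9% did. With activation 1 of the 9 was called, and 3 had an unadjusted p under 0.05, beside 22.4% of all genes. Between PRI-724 and quiescent cells 1 of the 9 was called higher and 0 lower, where 2.43% of all genes were called lower, and 5 had an unadjusted p under 0.05, beside 16.3%. The median of the 3 survival genes with PRI-724 was -0.76 in young and -0.28 in old cells. After cyclic loess it was -0.26 and -0.29, so the median did not keep the gap between ages. Bcl2 by itself kept a gap, at -0.92 in young and -0.33 in old cells after cyclic loess. The median of the 3 BH3-only genes was -0.56 and 0.01, and -0.48 and 0.05 after cyclic loess. The young and old responses could not be tested against each other with 1 array in each group.

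**Figure D2:**
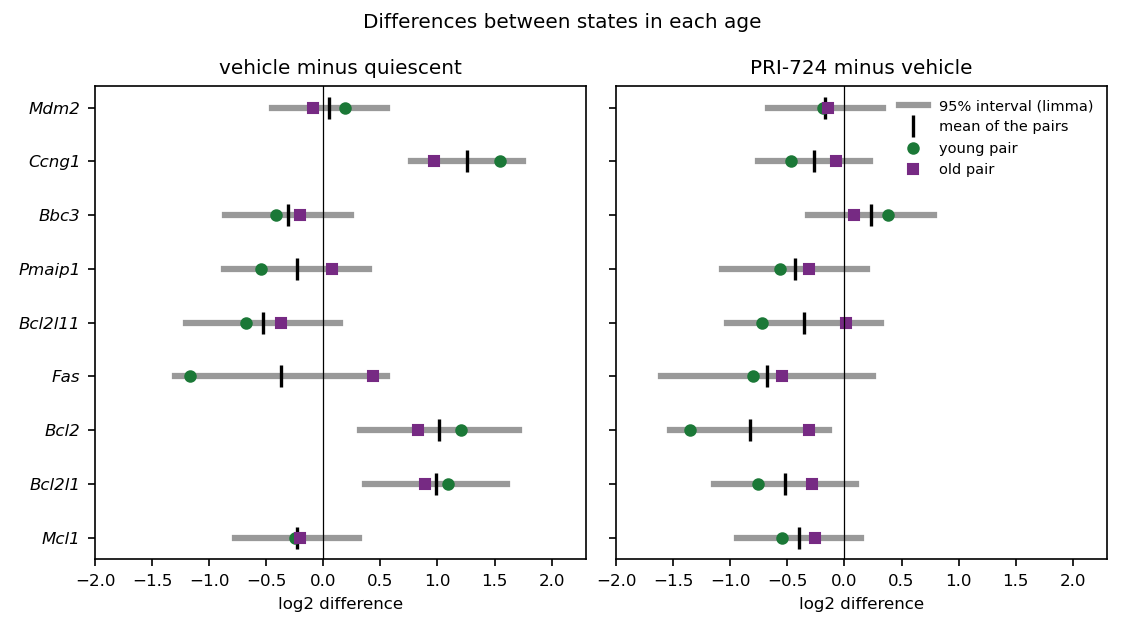
Log2 differences (x axis) of the 9 genes (y axis) for vehicle minus quiescent (left) and PRI-724 minus vehicle (right). Circles are the young and squares the old pair, ticks their mean, and grey bars limma's 95% interval. Only the bars of Ccng1, Bcl2 and Bcl2l1 on the left and of Bcl2 on the right leave out 0, and of these only Ccng1 was called after adjustment.

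Other genes of the p53 pathway were taken from a list of 34 targets and a list of 14 regulators. With PRI-724, 0 of the 30 tested targets were called in either direction, beside 2.20% of all genes. Their median was -0.31, with 7 higher and 17 lower in both pairs, where 25.8% and 35.0% of all genes were. After cyclic loess their median was -0.08, with 8 higher and 13 lower, beside 4991 and 5083 of all 15526 genes. The targets with the largest differences were Ckap2 (-1.54, adjusted p = 0.0713) and Gtse1 (-1.32, adjusted p = 0.0636), which act in mitosis, Apaf1 of the apoptosome (-0.94, adjusted p = 0.204) and Tnfrsf10b, the mouse TRAIL death receptor (-0.92, adjusted p = 0.386). Ckap2 and Gtse1 were called lower when either quiescent array was left out. Both of these fits rest on the same PRI-724 and vehicle arrays, so they are not separate checks. Without the old vehicle array Ckap2 stood at -2.28, and over the 14 alternatives it ran from -2.28 to -0.80. Its pairs in the main fit stood at -2.33 in young and -0.75 in old cells. Trp53inp1, a cofactor of p53, stood at -0.28 (adjusted p = 0.641). The targets higher in both pairs included Sesn2 at 0.55 (adjusted p = 0.34), Perp at 0.52 (0.355), Plk2 at 0.48 (0.253) and Phlda3 at 0.37 (0.554). None of them was called.

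Among 12 tested regulators of p53, 1 fell with PRI-724 and 0 rose, where 1.93% and 0.271% of all genes did. The gene was Chek2, the checkpoint kinase that phosphorylates p53 after DNA breaks. Its signals were 5.13, 6.60 and 5.04 in young and 5.30, 6.24 and 5.27 in old quiescent, vehicle and PRI-724 cells, so that both vehicle arrays stood above the 4 others. Chek2 rose by 1.20 ± 0.26 with activation (adjusted p = 0.0297) and fell by 1.26 ± 0.26 with PRI-724 (adjusted p = 0.0414). The 2 comparisons share the vehicle arrays. Neither call held after cyclic loess (adjusted p = 0.0603 and 0.101) or without the young vehicle array (0.443 and 0.476). The PRI-724 call was also lost when the young or the old PRI-724 array was dropped. Without the young PRI-724 array no gene at all was called between PRI-724 and vehicle, so that loss is not particular to Chek2. The activation call was also lost without the young quiescent, young PRI-724 or old PRI-724 array. Mdm4, the partner of Mdm2, stood at -0.23 in young and 0.71 in old cells with PRI-724 (adjusted p = 0.752).

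With activation, 3 of the 30 targets rose and 0 fell, where 4.61% and 1.26% of all genes did. They were Ephx1, an epoxide hydrolase, by 2.36 ± 0.37 (adjusted p = 0.00899), Ckap2 by 1.80 ± 0.37 (0.0234) and Psrc1, a spindle protein gene, by 1.67 ± 0.26 (0.00902). Leaving out either PRI-724 array ended the calls of Ephx1 and Ckap2. Both of these fits rest on the same vehicle and quiescent arrays, so they are not separate checks. Ckap2 was also not called without the young vehicle array (1.06, 0.316) or after cyclic loess (1.63, 0.0724). Against quiescent cells, 1 of the targets rose and 2 fell in PRI-724 cells, where 1.28% and 2.43% of all genes did, namely Ephx1 (1.97, adjusted p = 0.0179), Gtse1 (-1.52, 0.0257) and Apaf1 (-1.47, 0.038). These 3 calls were lost without the young PRI-724 array (0.207, 0.195 and 0.202) or the old one (0.201, 0.107 and 0.0738), and the calls of Gtse1 and Apaf1 also without the young quiescent array (0.431 and 0.5).

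The rest of the BCL2 family showed no call in any of the 3 state comparisons (0 of 10 tested). With PRI-724 the pore former Bak1 stood at -0.39 (adjusted p = 0.527), and the BH3-only genes Bid and Bad at 0.40 (0.503) and -0.11 (0.875). Bcl2l2, a survival gene, stood at -0.20 (0.743). The 2 members with the largest differences were Bnip3, a mitophagy receptor that responds to hypoxia, at -1.51 (0.0939), and Bcl2a1a, a survival gene of leukocytes, at -0.98 (0.198). Bnip3 was called lower without either quiescent array. Both of these fits rest on the same PRI-724 and vehicle arrays, so they are not separate checks. Without the old vehicle array Bnip3 stood at -2.24. It stood at -0.78 (0.992) without the young vehicle and -0.85 (0.837) without the young PRI-724 array. Bcl2a1a is one of several near-identical mouse copies, so its signal may include the others. The summed macrophage marker signal fell along with it, as given above, and its part in the Bcl2a1a value was not tested.

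Executioners and their brakes gave no call between PRI-724 and vehicle in the fit of all 6 arrays either. Of 13 tested death receptor genes 0 were called, and Casp8, the initiator caspase of that route, stood at -1.41 (adjusted p = 0.0782), Tnf at -1.17 (0.105) and Cflar, which blocks Casp8, at -0.45 (0.447). Casp8 and Tnf were called lower without either quiescent array. Both of these fits rest on the same PRI-724 and vehicle arrays, so they are not separate checks. Casp8 was also called lower without the old vehicle array. Without the young PRI-724 array Casp8 and Tnf stood at -0.77 and -0.76. Of 11 tested apoptosome, caspase and nuclease genes 0 were called, with Casp9 at 0.08 (0.922) and Casp6 at -1.13 (0.153). Of 6 tested inhibitors of apoptosis 0 were called. Xiap, which binds caspases, stood at -1.03 (0.113), Birc2 at -0.98 (0.416) and Naip2 at -0.95 (0.0978). Naip2 is one of several similar mouse genes. The median of this list was -0.70 for young and -0.50 for old cells, beside -0.14 and -0.01 for all genes. After cyclic loess it was -0.32 and -0.49. In the old pair Naip2, Naip5 and Xiap stood at -0.73, -0.75 and -0.72. Birc2, Birc3 and Birc6 stood at -0.28, -0.03 and 0.21 there, so the old median rests largely on the first 3 genes. Tnf, the inflammatory ligand, was the only death receptor gene called elsewhere. It fell by 1.61 ± 0.32 with activation (adjusted p = 0.0212) and was lower in PRI-724 than in quiescent cells (-2.78 ± 0.32, 0.00173). The first call was lost without the young quiescent (0.14) or young vehicle array (0.0752) and the second without the young PRI-724 array (0.107).

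With PRI-724 a rise was called in 1 of the 8 lists beside the 9 genes, that of stress-linked death regulators. Trib3, a pseudokinase induced by the transcription factors ATF4 and CHOP, had signals of 6.87, 5.82 and 7.76 in young and 7.18, 6.84 and 8.16 in old quiescent, vehicle and PRI-724 cells. Both PRI-724 arrays were above the 4 others. Trib3 rose by 1.63 ± 0.29 with PRI-724 (3.09-fold, adjusted p = 0.0229), with 1.94 in young and 1.32 in old cells. The call was lost without the young vehicle array (1.30, adjusted p = 0.275), the young PRI-724 array (1.50, 0.458) or the old PRI-724 array (1.76, 0.0713), and after cyclic loess (1.88, 0.0693). Of the 10 genes of this list, which includes Bcl2l11, 1 rose and 0 fell, where 0.271% and 1.93% of all genes did. In both pairs 7 were higher, where 25.8% of all genes were. With activation 7 of the 10 had been lower in both pairs (33.4% of all genes), with a median of -0.66. Between PRI-724 and quiescent cells 2 were higher and 5 lower in both pairs, where 30.8% and 24.9% of all genes were. The median there was -0.32.

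Ddit3, which encodes CHOP, was at least 2-fold higher in both pairs, where 0.367% of all genes were, without passing the threshold. Its signals were 8.05, 6.78 and 8.02 in young and 7.81, 7.21 and 8.22 in old quiescent, vehicle and PRI-724 cells. It stood at 1.13 ± 0.29 (adjusted p = 0.0903), and the PRI-724 values lay near the quiescent ones. Atf4 stood at 0.58 (adjusted p = 0.301) and Chac1, a glutathione-degrading enzyme, at 0.91 (0.281). Bbc3 and Pmaip1, which this pathway can induce, stood at 0.23 and -0.43 in the same comparison. With activation, 2 genes of the list fell, Ppp1r15a (GADD34) by 1.27 ± 0.27 (adjusted p = 0.0259) and Atf3 by 1.13 ± 0.27 (0.0402). Both calls were lost without the young quiescent (0.183 and 0.407), old quiescent (0.15 and 0.0965), young vehicle (0.265 and 0.435) or old vehicle array (0.0691 and 0.0684), and that of Atf3 also when the young (0.062) or the old PRI-724 array (0.0618) was dropped. Atf3 was the only gene of the list called between PRI-724 and quiescent cells (-1.35, 0.0245), a call lost without the young quiescent (0.384), young PRI-724 (0.174) or old PRI-724 array (0.119).

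**Figure D3:**
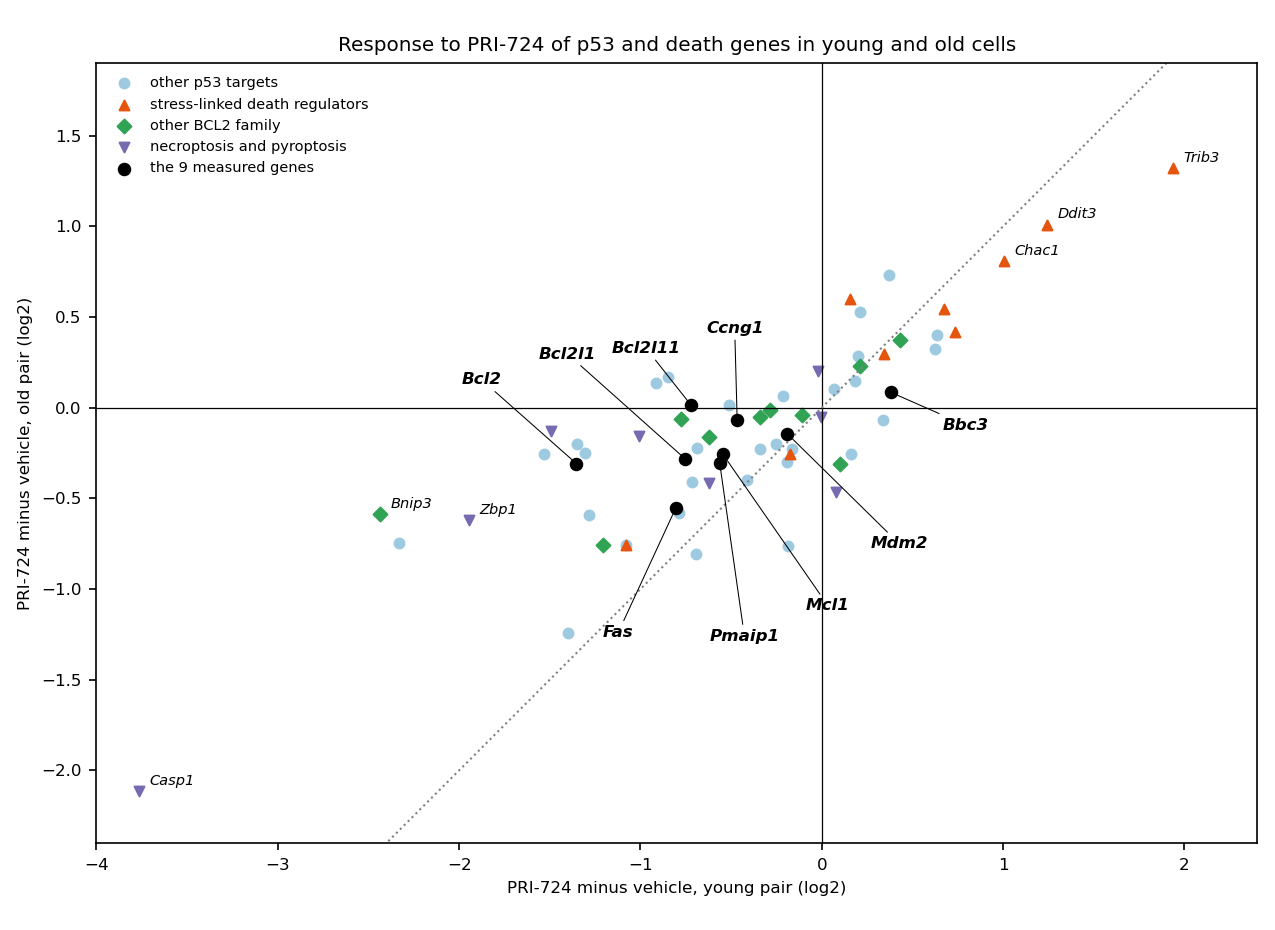
PRI-724 minus vehicle difference in the young (x axis) and old pair (y axis), in log2 units, for the 9 genes (black) and the tested genes of 4 related lists; the dotted line marks equal values. The black points lie between -1.35 and 0.38 on the x axis and between -0.55 and 0.09 on the y axis, with Trib3 and Ddit3 at the upper right and Casp1 at the lower left.

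Lytic death genes were represented by 8 tested genes, of which 1 fell and 0 rose with PRI-724, where 1.93% and 0.271% of all genes did. Casp1, the inflammasome caspase that is abundant in macrophages, had signals of 8.85, 8.56 and 4.79 in young and 7.01, 7.33 and 5.21 in old quiescent, vehicle and PRI-724 cells. Both PRI-724 arrays were far below the 4 others. Casp1 fell by 2.94 ± 0.46 (adjusted p = 0.0118), and after cyclic loess it stood at -2.70 (0.0691). Without the young PRI-724 array it stood at -1.97 (0.295). The macrophage markers that moved with it are given above, and their part in the value was not tested. Against quiescent cells 2 of the 8 genes were called lower in PRI-724 cells, where 2.43% of all genes were. They were Casp1 (-2.93, adjusted p = 0.00767) and Zbp1, a sensor of Z-form nucleic acids (-1.69, 0.0283). Both calls were lost without the young PRI-724 array (0.124 and 0.178), and that of Zbp1 also without the old PRI-724 (0.0541) or young quiescent array (0.0604). Mlkl, the effector of necroptosis, stood at 0.09 against vehicle (0.886).

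**Figure D4:**
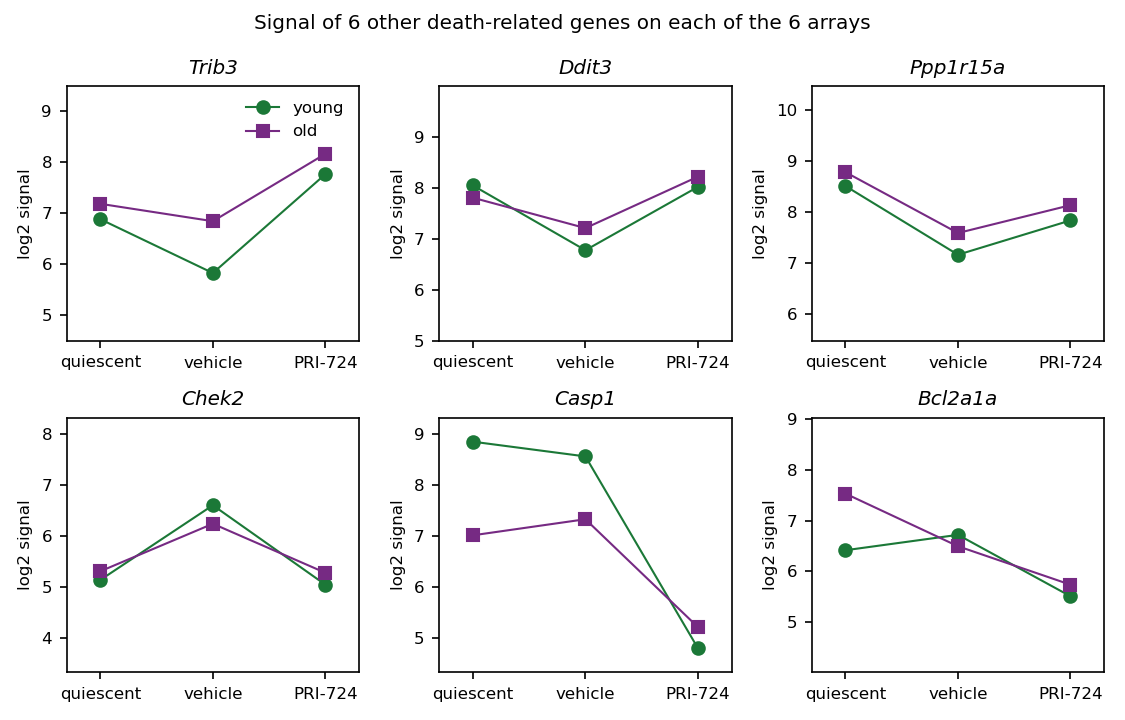
Log2 signal (y axis, a window of 5 log2 units in each panel) of 6 other death-related genes in quiescent, vehicle and PRI-724 cells (x axis), with 1 array per point, circles for young and squares for old. Trib3 is highest and Casp1 and Bcl2a1a are lowest in PRI-724 cells at both ages, and Chek2 is highest in vehicle cells.

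Between ages, 0 of the 9 genes were called over the 3 states (limma, n = 3 pairs), where 0.515% of all genes were. At an unadjusted p under 0.05 there were 5 of the 9, beside 10.4% of all genes. Mdm2 was higher in old cells by 0.64, 0.35 and 0.40 in quiescent, vehicle and PRI-724 cells (mean 0.46 ± 0.18, adjusted p = 0.42). Ccng1 was higher by 0.72, 0.15 and 0.54 (0.47 ± 0.18, 0.394) and Bcl2l1 by 0.51, 0.31 and 0.78 (0.53 ± 0.23, 0.453). Bcl2l11 was lower in each state, at -1.06, -0.76 and -0.02 (-0.61 ± 0.25, 0.424), and so was Fas, at -2.17, -0.57 and -0.31 (-1.02 ± 0.34, 0.317). Bbc3 was the fourth gene higher in old cells in every state (0.32 ± 0.20, 0.657).

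Other p53 targets were also mostly higher in the old arrays, with none called. Of the 30 tested, 17 were higher in all 3 states and 0 were lower in all 3, where 21.0% and 11.3% of all genes were. The median was 0.36 against 0.04 for all genes. By state it was 0.31 in quiescent, 0.27 in vehicle and 0.68 in PRI-724 cells. After cyclic loess 16 and after quantile normalization 11 were higher in all 3 states, and the median in PRI-724 cells became 0.22 and 0.30. Of all 15526 genes, 2761 were higher in all 3 states after loess and 2779 after quantile normalization. The targets with the largest differences were Gtse1, at 0.92 ± 0.25 (adjusted p = 0.201), Sesn2, a stress-induced inhibitor of mTORC1, at 0.92 ± 0.21 (adjusted p = 0.118) and Zmat3, an RNA-binding protein gene, at 0.88 ± 0.22 (0.155). Psrc1 stood at 0.67 ± 0.21 (0.287) and Eda2r, a receptor of the TNF family, at 0.66 ± 0.24 (0.361). Hepatocyte markers were higher in the old arrays as well, with 4 of 9 called and a summed signal of 11600 against 1290 in quiescent cells, and their part in these values was not tested.

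The tested genes whose signal followed most closely that of 4 of the genes over the 6 arrays are given as a description. They share arrays and ages with them, and with so few arrays many genes reach a high value. For Mdm2 they were Nol12 (Pearson r = 0.991), Tom1 (0.99) and Fasn (0.979), and 113 genes had r above 0.9. For Ccng1 they were St3gal2 (0.999), Dclre1a (0.998) and Vim (0.998), with 1070 genes above 0.9. For Pmaip1 they were Psmb9 (0.999), H2-DMa (0.996) and Mtcp1 (0.996), with 408 such genes. For Bbc3 they were Serpina1b (0.985), Wiz (0.985) and Urb1 (0.983), with 106 such genes.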

How the data were processed

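The deposited values were log2 signals per probe set, made by the authors with Affymetrix Expression Console and RMA, per the submitters' processing notes. Their versions are not given in the notes used here. RNA was extracted with RNeasy columns and labelled with the WT PLUS kit, per the labels' protocols. RMA shrinks low signals, so differences of dim genes may be understated, and the number of arrays limits the precision.

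Of 41345 probe sets, 23521 had 1 gene symbol in the platform annotation, 1814 several and 16010 none; the last 2 kinds were not used. The probe set with the highest mean stood for a gene. The 30% of genes with the lowest mean (under 4.70) were left out, which kept 15526. Differences were fitted with limma 3.58.1 in R 4.3.3 on age and state (2 residual and 7.76 prior degrees of freedom, intensity trend), with Benjamini-Hochberg adjustment and a threshold of 0.05. The 95% intervals are not adjusted over genes. The model was tested on simulated data. For PRI-724 minus vehicle it called 38 of 100 changes of 2-fold and 100 of 100 changes of 4-fold, so many 2-fold changes were missed. Each list gene past the threshold was named, up to 6 a comparison, or else up to 4 with the largest differences, beside 16 genes always named, where measured; all 9 measured genes were reported throughout. The members and lists were chosen with earlier results of these data known. Promoter windows came from RefSeq (GRCm38.p6). Figures used Python 3.11.15 and matplotlib 3.10.9. Alternatives were other filters, probe sets, normalizations, covariates and sets of arrays.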

Additional observations from a re-analysis of the deposited data

Results flagged for a closer look

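Young and old pairs went opposite ways for 6 values, and with 1 array in each group the difference between ages was not tested. With activation, Fas stood at -1.17 in young and 0.433 in old cells, Pmaip1 at -0.543 and 0.0749, and Mdm2 at 0.193 and -0.0895. For PRI-724 minus vehicle, Bcl2l11 gave -0.722 in young and 0.0149 in old cells. For PRI-724 minus quiescent, Bcl2 gave -0.149 and 0.519, and Mdm2 0.00231 and -0.233. After cyclic loess the activation values of Pmaip1 (-0.69 and -0.03) and Mdm2 (-0.02 and -0.21) and the Bcl2 values (0.07 and 0.35) were no longer opposed.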

How the results depend on the processing

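With PRI-724 against vehicle, 0 of the 9 genes were called under every alternative run; 1 was called with activation, 1 against quiescent cells and 0 between ages. Ccng1 lost its activation call with only the arrays compared and without age in the model (0 called each), and its call against quiescent cells (0 called) with no signal filter, no intensity trend, cyclic loess or no age term. Leave-one-out counts were 0 to 1 with activation, 0 to 2 against quiescent cells (Fas joined), and 0 otherwise.

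Over all genes, 911 were called with activation (482 after loess, 331 after quantile normalization, 481 with only the arrays compared, 114 without age, 318 to 1230 in leave-one-out fits). PRI-724 against vehicle gave 341 (103, 84, 965, 91, and 0 to 968, with 0 when the young PRI-724 array was left out). PRI-724 against quiescent gave 577 (1064 with only the arrays compared, 217 without age, 0 to 1053). Age gave 80 (7 after loess, 12 after quantile normalization, 216 with only the vehicle and PRI-724 arrays, 0 without state, 0 to 343 in leave-one-out fits).

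Of 512 alternative values of the 9 genes, 20 changed sign. Mdm2 with activation was -0.119 (loess) and -0.076 (quantile), and -0.078 to 0.18 in leave-one-out fits; with PRI-724 it was 0.067 (quantile). Bcl2 between ages was -0.074 (loess) and -0.057 (quantile), and -0.22 to 0.31 in leave-one-out fits. The second Bcl2 probe set gave -0.47 with activation, 0.47 with PRI-724 and -0.0067 against quiescent cells. Mcl1 between ages was 0.088 as the mean of its probe sets and 0.25 for the second one. Other leave-one-out ranges across 0 were -0.61 to 0.14 (Pmaip1, activation), -1.23 to 0.50 (Fas, activation), -0.80 to 0.091 (Bcl2l11, PRI-724 against vehicle), and, against quiescent cells, -0.24 to 0.014 (Mdm2), -0.17 to 0.016 (Bbc3) and -0.24 to 0.61 (Bcl2). The cause was not tested. Leaving out an array leaves its state with 1 array, assumed to vary like the others. States were paired within age through the age term; with 1 array in each group there was no replicate number to use as a block.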

Other observations

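Among the lytic death genes, Zbp1, which activates necroptosis after sensing nucleic acids, was lower in old cells. Its signals were 9.46, 9.20 and 7.25 in young and 6.44, 5.89 and 5.27 in old quiescent, vehicle and PRI-724 cells, so that every old array lay below every young one. Zbp1 fell by 2.77 ± 0.28 over the 3 states (limma, adjusted p = 0.00512, n = 3 pairs). The adjusted p was 0.0182 after cyclic loess and 0.134 when the young PRI-724 array was left out, or 0.136 for the old one. Casp4, which encodes the caspase that senses bacterial lipopolysaccharide inside cells, stood at -1.43 ± 0.27 between ages (adjusted p = 0.0585), with -2.11, -1.07 and -1.11 in quiescent, vehicle and PRI-724 cells.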
